A study of Sardinops sagax and Scomber japonicus with 20 samples.

Results

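Liver transcripts of 2 Californian fish, Sardinops sagax (Pacific sardine) and Scomber japonicus (chub mackerel), were compared gene by gene over the 472 genes that were well counted in both species. These genes were selected on their counts: the human symbol had to stand in the tables of both species, the row of highest mean normalized count represented each symbol, and that mean had to reach 10 in both tables. They were 472 of 3449 shared symbols, and 9374 symbols occurred in at least 1 table. The other 2977 shared symbols fell under a mean of 10 in at least 1 table. In the authors' deposited tables the 472 genes carried 60.4% of the summed sardine means and 58.4% of the summed mackerel means.

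The liver RNA came from 20 adult male fish of 2 species. In each species 5 controls were set against 5 males exposed for 5 h to EE2 (17α-ethynylestradiol, a synthetic estrogen used in oral contraceptives) at 12.5 pM. All fish came from a live bait facility and their earlier history is not given. All were held in ambient flow-through seawater and fed pellets before the exposure. No genetic line, transgene or second agent is named for any group.

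The vertebrate liver makes most proteins of the blood plasma, among them clotting factors, complement proteins, protease inhibitors, apolipoproteins and carriers of heme and iron. It also builds sterols, breaks down amino acids and oxidizes foreign compounds. Estrogens act on hepatocytes mainly through nuclear estrogen receptors, and in male fish a longer exposure is known for switching on the egg yolk and egg envelope proteins that females make in the liver. Genes of the plasma proteins, the ribosome and basic metabolism are kept between fish families.

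The data were 1 table of a DESeq2 comparison per species, with no values per fish and no depth per library. Sardine rows carried names of zebrafish transcripts and mackerel rows those of fugu gene models. Whether the exposed or the control fish form the numerator of a fold change is not stated, and the order may differ between the tables. Values are therefore given for a positive and a negative side, and none is attributed to EE2. Genes with an adjusted p under 0.05 (DESeq2's Wald test, authors' deposited table) are referred to as called, and errors are the standard errors (SE) of those tables. For sardine the level of each side was computed from the deposited mean and fold change. For mackerel the whole reads on each side were recovered from the regular steps of the deposited means, in which a positive-side read was worth 0.455 and a negative-side read 0.563 normalized counts, so that equal levels go with more positive-side reads. All 358 mackerel read pairs that occurred in more than 1 row had a single fold change and SE. The mackerel SE therefore holds no spread between the 5 fish of a group and follows from 2 totals. It is not their counting error either, since it hardly changed with the number of reads. It was 0.251 for FGG with 14840 and 18547 reads and 0.243 for MB with 7 and 24 reads. A mackerel call on few reads thus does not by itself show a difference beyond counting error. The sardine means had separate steps for 5 positive-side libraries but a single step for the negative side. All sardine calls and marker sums therefore rest on 1 negative-side total, in which no spread between 5 fish can be seen, and how the fish entered the authors' fit is not stated. Sequences and transcript lengths were not used here. The abundance ranks below order the selected genes by their mean within each table, and a gene's ranks were then compared between tables. These ranks were not corrected for transcript length, and the part of transcript length in them was not tested.

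The sides of the sardine table differed in their cell type markers. The summed level of 17 striated muscle markers was 47.3 for the positive against 17634 for the negative side, and 33 of their 39 rows were called negative. The 12 hepatocyte markers found in sardine summed to 46704 against 9844, with 15 of 16 rows called positive. In mackerel the muscle markers held 45 and 67 reads, and the hepatocyte markers 61947 and 67907 reads, on the positive and negative side. The egg and testis markers of mackerel differed more, with 512 against 26 reads, although only 1 of their 5 rows was called and none is a member. Exocrine pancreas markers summed to 86.3 against 10.6 in sardine and 320 against 250 reads in mackerel. Bile duct markers summed to 99.1 against 126.5 in sardine and 267 against 204 reads in mackerel. Endothelial and stellate cell markers in sardine summed to 11.1 against 110.2, leukocyte markers to 41.4 against 95.6, and erythrocyte markers to 437 against 727. The mackerel reads of the same types, in this order, were 25 and 41, 198 and 156, and 214 and 252. HBZ, a hemoglobin gene outside the marker set, was called positive in sardine, with a log2 fold change of 2.29 ± 0.42. The sardine differences ran along the same axis as every sardine fold change below, and their part in those results was not tested. In bulk liver RNA fewer cells of a type and less RNA per cell cannot be told apart.

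The most abundant shared transcripts were plasma proteins and ribosomal proteins in both species. FGG, the gamma chain of fibrinogen, had the highest mean of the 472 genes in sardine, 17171, and the second highest in mackerel, 17200.4. Its partner FGB, the beta chain, ranked 2 and 4. Prothrombin (F2) ranked 6 in sardine and 10 in mackerel, and hemopexin (HPX), which carries free heme, ranked 11 and 5. The ribosomal proteins RPL23, RPL8 and RPS2 ranked 4, 12 and 10 in sardine and 7, 9 and 12 in mackerel. Of the 100 most abundant members of each species, 75 were the same genes, and 53 of these encode proteins of the cytosolic ribosome. The first 20 ranks shared 11 genes. RPL3, RPS3 and RPL36A ranked 15, 13 and 14 in sardine and 13, 16 and 17 in mackerel. MFI2, an iron-binding membrane transferrin, ranked 20 and 15, and the microfibril protein MFAP4 5 and 24.

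Across the 472 genes the abundance ranks had a Spearman correlation of 0.612, and the log10 means a Pearson correlation of 0.714. Both are descriptions over genes, which are not independent replicates, and the threshold that selected the genes cuts off the low end of both axes. Over all 3449 shared symbols the values were 0.467 and 0.637. Over the 381 members with sardine reads on both sides they were 0.680 and 0.780. The median gap between a gene's 2 ranks was 62.5 places, with 203 genes within 50 places and 51 genes more than 200 apart.

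**Figure D1:**
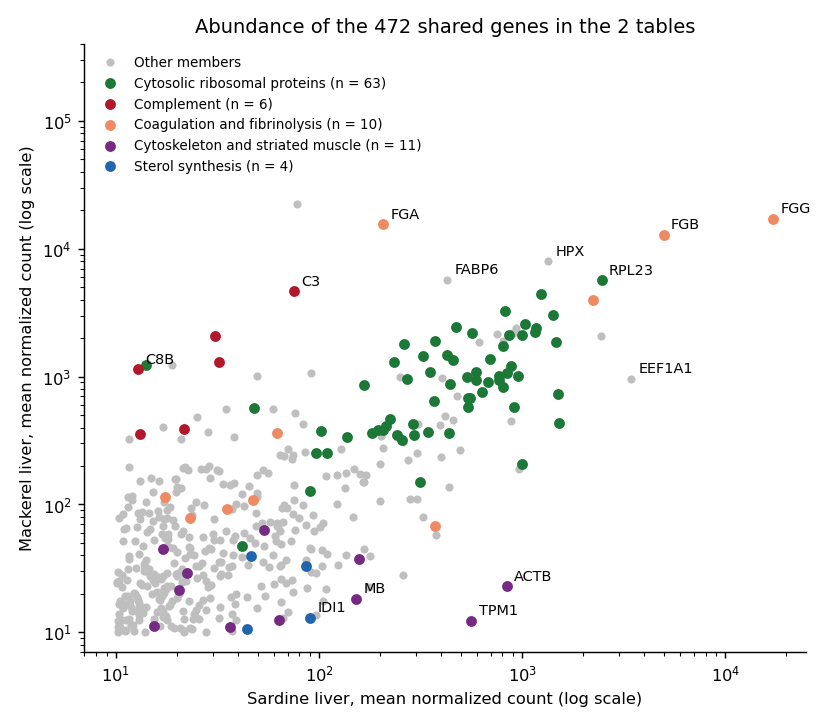
Mean normalized count of each of the 472 shared genes in the sardine table (x axis, log scale) and the mackerel table (y axis, log scale). Each point is 1 gene, and colours mark 5 functions. Most ribosomal proteins lie on a common diagonal from about the middle to the upper right, the 6 complement genes lie above it, and ACTB, TPM1, MB and the sterol genes lie below it.

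Some genes stood far from their rank in the other species. The 8 largest gaps towards sardine held 4 cytoskeletal or muscle genes and 4 of other roles. Tropomyosin TPM1, which lies along the actin filament, had a mean of 563 in sardine (rank 42) and 12.3 in mackerel (rank 449). The actin gene ACTB ranked 26 and 358, and myoglobin (MB), the oxygen store of muscle, 104 and 385. Both TPM1 and MB are muscle markers and came almost wholly from the sardine negative side: TPM1 had a positive-side level of 5.22 and a negative-side level of 1121, and MB 0.291 and 305. SESN1, a stress-induced sestrin, ranked 125 in sardine and 429 in mackerel, with 14.9 against 179 on the sardine sides. IDI1, an isomerase of the sterol pathway, ranked 134 and 433 with its sardine level higher on the positive side (154 against 26.6). The translation factor EIF5 ranked 119 and 391, the phospholipid-binding annexin ANXA5 164 and 435, and the actin-severing CFL2 173 and 444. Actins and tropomyosins have near-identical copies, and how reads were split among them is uncertain.

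The 8 largest gaps towards mackerel included the complement genes C8B and C7. C8B, a chain of the membrane attack complex, had a mean of 12.9 in sardine (rank 417) and 1148 in mackerel (rank 40). C7, of the same complex, ranked 410 and 92. FAU, a ribosomal protein made as a ubiquitin-like fusion, ranked 392 and 37, SEC61B of the protein translocation channel 434 and 99, and the cargo receptor LMAN1 440 and 162. The mitochondrial aminotransferase GOT2 ranked 435 and 120, the matrix protein fibronectin (FN1) 358 and 82, and C6orf58 328 and 38. Of these 8 genes, C8B, C7, FAU, SEC61B and LMAN1 had 0 reads on the sardine negative side. FIBCD1, named after its values were seen, was the most abundant member in mackerel with a mean of 22552 and ranked 144 in sardine with a mean of 77.9.

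By function, ribosomal protein genes held similar ranks in both species and complement genes did not. The 63 ribosomal protein genes had a median rank of 49 in sardine and 55 in mackerel, and the median of their gaps was 3 places. All 6 complement genes ranked higher in mackerel, with a median gap of 220 places: complement C3, the central protein of the cascade, ranked 147 in sardine and 8 in mackerel, its inactivating protease CFI 247 and 23, and the factor B gene CFB 242 and 35. Of the 14 acute phase and carrier genes 11 ranked higher in mackerel, as did 16 of the 24 genes of secretory protein folding and transport. The cytoskeleton leaned to sardine, where 8 of 9 genes ranked higher, and so did all 4 sterol genes, with a median gap of 209 places. Within clotting the 3 fibrinogen chains differed: FGA, the alpha chain, had a mean of 207 in sardine (rank 87) against 15525 in mackerel (rank 3), while FGB and FGG were within the first 4 ranks of both. The fibrinogen molecule contains the 3 chains in equal number. FGA, a curated zebrafish record, had 0 sardine reads on the negative side. Of members with a curated record 33 of 411 were at 0 there, against 58 of the 61 with a predicted record. The part of the record type in the ranks was not tested, beyond the curated-only values given under the processing alternatives.

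**Figure D2:**
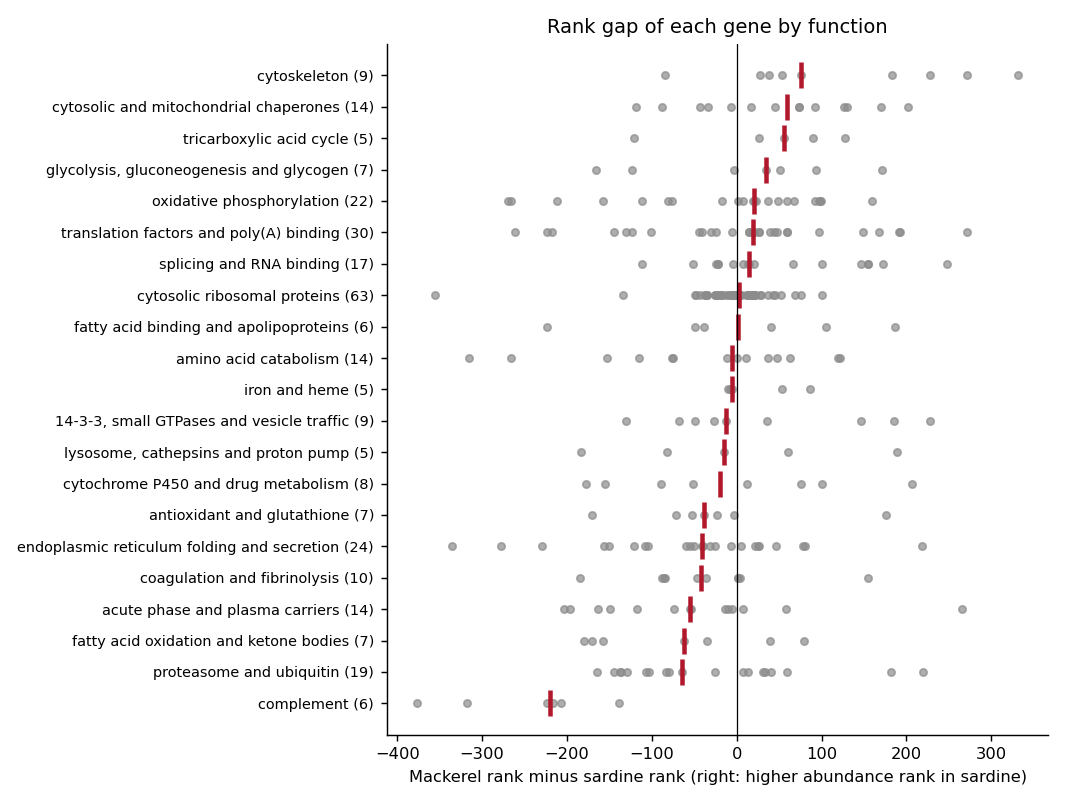
Rank in mackerel minus rank in sardine (x axis, places among the 472 genes) for the genes of each function with at least 5 members; grey points are genes and red bars medians. Points to the right rank higher in sardine. Ribosomal proteins cluster at 0, cytoskeletal genes lie mostly to the right, and all 6 complement genes lie to the left.

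The fold changes of the 2 species showed little relation across the 472 genes, with a Spearman correlation of -0.08 and a Pearson correlation of -0.07, again as descriptions over genes. For the 381 genes with sardine reads on both sides the values were -0.01 and 0.09. The sardine table was the wider: the authors' deposited log2 fold changes had a median of 0.93 and quartiles of -0.57 and 2.63, against a median of 0.00 and quartiles of -0.36 and 0.48 in mackerel. The median SE was 0.42 in sardine and 0.24 in mackerel. The 2 scales are not the same, because the mackerel means include an added constant of 1.66, which damps their fold changes, whereas the sardine values do not. The mackerel values are also damped beyond that constant: for FGG, FGB, F2 and LSS they were smaller in size than the reads and the constant give. With 91 genes at 0 reads on the sardine negative side, their fitted fold change is no measure of size. For these genes the fold of the positive over the negative side is given as a lower bound, computed against a floor of 3 reads summed over the negative side. Of these 91 genes 89 were called positive in sardine, and 58 had a predicted record, of 61 such records among the members. The bounds cover counting error only, and the part of the record type in these zeros, bounds and calls was not tested. Pairs of levels or reads below name the positive side first.

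In sardine 254 of the 472 genes (53.8%) were called positive and 92 (19.5%) negative. The shares over the whole sardine table were 30.5% and 16.1%. In mackerel 98 genes (20.8%) were called positive and 61 (12.9%) negative, against 14.1% and 10.8% of its table. A mean of at least 10 can be reached through the higher side alone: 180 members had a lower side under 10 in sardine, 145 of them the negative side, and 52 in mackerel. Among the 264 genes with a level of 10 or more on all sides of both tables, 106 (40.2%) were called positive and 61 (23.1%) negative in sardine, and 52 (19.7%) and 25 (9.47%) in mackerel. Of all 472, 20 genes had no adjusted p in the authors' deposited sardine table and count as not called.

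Calls in both tables went the same way about as often as opposite ways. There were 127 such genes, of which 52 were positive in both (11.02% of the 472) and 12 negative in both (2.54%). Of the rest, 42 were sardine-positive with a negative mackerel call (8.90%), and 21 sardine-negative with a positive mackerel call (4.45%). The shares among the 2750 shared symbols with an adjusted p in both tables were 6.84%, 1.42%, 5.31% and 1.85% in the same order. Among genes with sardine reads on both sides the 4 counts were 35, 12, 23 and 21. Because the order of the groups is not recorded, a swap in 1 table would exchange the same-sign and the opposite-sign counts, which are 64 and 63. Mackerel calls on few reads, such as ACTG1 (47 against 25), enter these counts without a test against counting error. A further 94 genes were called in neither table.

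**Figure D3:**
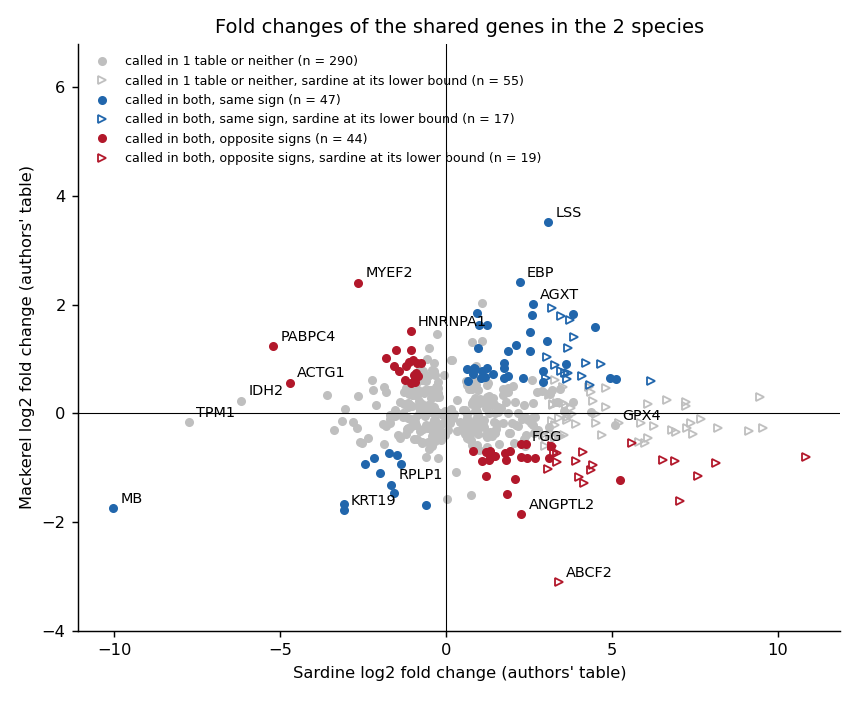
Sardine (x axis) against mackerel (y axis) log2 fold change of the 472 genes from the authors' deposited tables. Filled circles have sardine reads on both sides; open triangles mark the 91 genes at 0 on the sardine negative side, drawn at the log2 of their lower bound. The 64 genes called with the same sign (blue) and the 63 called with opposite signs (red) are about equal in number.

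The counts by function are described beside the shares of all 472 genes, 53.8% positive and 19.5% negative in sardine and 20.8% and 12.9% in mackerel, and shares near these say nothing about a list. Plasma protein genes were positive throughout in sardine. In mackerel, where 66.3% of all 472 genes were not called, they had calls in both directions. All 10 clotting genes, all 6 complement genes and all 14 acute phase and carrier genes were called positive in sardine. Of these, 2 clotting, 4 complement and 6 acute phase and carrier genes had 0 reads on the sardine negative side. In mackerel the same lists had 1 positive and 3 negative (30%), 1 positive and 2 negative (33.3%), and 2 positive and 3 negative (21.4%) calls. These negative shares lay above the 12.9% of all 472 genes, but each rests on few genes. FGG had a sardine level of 28794 (positive side) and 5547 (negative side), and 14840 and 18547 mackerel reads. In the authors' deposited tables that gave a log2 fold change of 2.38 ± 0.10 in sardine (adjusted p 6.86e-124) and -0.60 ± 0.25 in mackerel (adjusted p 0.0627). FGB stood at 7735 and 2209 in sardine, and at 9888 and 14963 reads in mackerel, where the authors' deposited table has it as negative (log2 fold change -0.86 ± 0.25, adjusted p 0.00496). F2 was 3569 against 878 in sardine and had 5115 and 2880 mackerel reads, which passed no call (adjusted p 0.118). The antiprotease SERPINA1 was 539 against 78.2 in sardine and had 415 and 421 reads in mackerel. These sardine calls ran with the hepatocyte markers, of which 10 are themselves among the 472 genes.

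Within the complement list, the factor B gene CFB and C8A were called in opposite directions. CFB had sardine levels of 45.2 and 19.4 and mackerel reads of 1068 and 1451, and C8A levels of 38.8 and 4.49 and reads of 303 and 447. C7 was called positive in both: it was at least 9.85-fold higher on the sardine positive side and had 511 against 217 reads in mackerel. C3 was at least 56.9-fold higher on the sardine positive side and had 4165 and 4920 mackerel reads, which did not pass (adjusted p 0.108). Apolipoproteins, the protein shell of blood lipid particles, showed the same contrast. APOA4 was 1604 against 332 in sardine and 148 against 214 reads in mackerel, with log2 fold changes of 2.27 ± 0.22 and -0.80 ± 0.24 in the authors' deposited tables. APOC2, an activator of lipoprotein lipase, was at least 93.7-fold higher on the sardine positive side and had 24 against 37 reads in mackerel, called negative. APOB, the scaffold of very-low-density particles, was also called in opposite directions. The joint list of fatty acid binding proteins and apolipoproteins had 6 members, of which 5 were positive in sardine and 3 negative in mackerel. On that list 3 genes had 0 reads on the sardine negative side. FABP6, a bile acid binding protein, had no adjusted p in sardine, with levels of 744 and 111, and 7188 and 4342 reads in mackerel.

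Ribosomal protein genes were nearly absent from the sardine-negative and the mackerel-positive calls, while their other shares were near those of all 472 genes. Of 63 ribosomal protein genes 41 were called positive (65.1%) and 1 negative (1.59%) in sardine, and 0 positive and 9 negative (14.3%) in mackerel. The median log2 fold changes were 0.90 and -0.25, beside 0.93 and 0.00 over the 472 genes and -0.19 and 0.04 over all rows of the tables. The 6 genes RPL34, RPS20, RPS15A, RPS13, RPS21 and RPS29 were positive in sardine with a negative call in mackerel. RPS2 had sardine levels of 2177 and 663 and mackerel reads of 3763 and 2372. RPL8 stood at 1498 and 966, with 4708 and 4054 reads. RPLP1, an acidic protein of the ribosomal stalk, was the gene called negative in sardine and was negative in both, at 262 and 823 in sardine and 350 and 736 reads in mackerel. RPL3 (0.23 ± 0.23 and -0.00 ± 0.25) and RPL7A (0.11 ± 0.28 and -0.17 ± 0.25) were called in neither of the authors' deposited tables. RPSA (levels of 1644 and 1294, reads of 2248 and 1519) and RPL27A (1231 and 451, reads of 1091 and 996) had no adjusted p in sardine and were not called in mackerel.

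Translation factors were called on both sides of the sardine table. Of 30 genes 8 were positive (26.7%) and 11 negative (36.7%) in sardine, and 3 and 3 in mackerel. EEF1A1, which brings aminoacyl-tRNA to the ribosome, was 2622 against 4278 in sardine (adjusted p 2.91e-08, authors' deposited table) and had 1288 and 668 reads in mackerel (adjusted p 0.0585). The translocation factor EEF2 was 683 against 919.6 in sardine. PABPC4, a poly(A) binding protein, was called in opposite directions: it was 8.73 against 323 in sardine and had 68 against 22 reads in mackerel, with log2 fold changes of -5.21 ± 0.32 and 1.23 ± 0.22 in the authors' deposited tables. The initiation helicase EIF4A1 was positive in both, with at least 72.8-fold in sardine and 37 against 19 reads in mackerel. Its mackerel call rests on few reads and does not by itself show a difference beyond counting error.

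Several RNA binding proteins and chaperones were negative in sardine but positive in mackerel. Of 17 splicing and RNA binding genes 5 were positive (29.4%) and 5 negative in sardine, and 8 positive (47.1%) and 0 negative in mackerel. YBX1, HNRNPA1, HNRNPA0 and MYEF2 were sardine-negative with a positive mackerel call. The mRNA packaging protein YBX1 had levels of 319 and 633 in sardine and 1043 and 412 reads in mackerel. HNRNPA1, a splicing regulator, stood at 70.4 and 146, with 34 and 8 reads. The Sm core protein SNRPF was instead positive in both, at least 11-fold in sardine and 46 against 9 reads in mackerel. Of 14 chaperones 6 were positive (42.9%) and 4 negative in sardine, and 7 positive (50%) and 0 negative in mackerel. CCT2, CCT6A and CCT7, subunits of the chaperonin that folds actin and tubulin, had the same opposition. CCT6A had levels of 57.1 and 123 and reads of 65 and 26. The mackerel call of CCT2, at a mean of 16.4, does not by itself show a difference beyond counting error. HSPE1, the mitochondrial co-chaperonin, and PPIA, a cyclophilin, were positive in both. HSPA8 was positive in sardine (299.8 against 199.5) and not called in mackerel (1019 and 942 reads).

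Genes of the respiratory chain and the tricarboxylic acid cycle were mostly negative in sardine, the side of the muscle markers, and those of sugar and fat oxidation were divided. Of 22 genes of oxidative phosphorylation 3 were positive and 13 negative (59.1%) in sardine, and 4 positive and 0 negative in mackerel. ATP5B, the catalytic beta subunit of ATP synthase, was called in opposite directions, at 206 and 399.6 in sardine and 345 and 167 reads in mackerel. CYC1 and NDUFS1, of respiratory complexes III and I, shared that pattern. The mackerel call of NDUFS1, at a mean of 25.2, does not by itself show a difference beyond counting error. ATP5A1 was 316 against 559.8 in sardine and not called in mackerel (156 and 116 reads). Of the 5 genes of the tricarboxylic acid cycle 4 were negative in sardine, among them IDH2 at 8.93 against 640.4 and MDH2 at 70.8 against 488, while their mackerel reads were 94 and 64, and 112 and 102. The cytosolic IDH1 was positive in sardine. Among 7 genes of sugar metabolism ENO1 and ALDOC, of glycolysis, were negative in sardine, and FBP1, of gluconeogenesis, was positive at 116 against 8.23, as was UGP2, of glycogen synthesis, by at least 7.63-fold. GAPDH had no adjusted p in sardine, with levels of 313 and 1444, and 571 and 339 mackerel reads. Among 7 genes of fatty acid oxidation HADHA and ACADL were negative in sardine, ECH1 was positive there (20.6 against 7.87), and ACADM, HADHB and ECHS1 were positive in mackerel, where ACADM had 73 against 35 reads. All 4 mitochondrial carriers and channels, SLC25A3, SLC25A5, SLC25A22 and VDAC2, were negative in sardine.

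Each of the 4 sterol genes among the 472, of 19 shared symbols on that list, was called positive in both of the authors' deposited tables. LSS, which closes the sterol ring, had levels of 83 and 9.78 in sardine and 79 and 3 reads in mackerel. Its log2 fold changes in the authors' deposited tables were 3.09 ± 0.47 (adjusted p 6.37e-09) and 3.52 ± 0.30 (adjusted p 1.71e-28). EBP, a sterol isomerase, stood at 142 and 30.4, with 60 and 7 reads. FDPS, which makes farnesyl pyrophosphate, stood at 75.9 and 12.5, with 17 and 2 reads, and IDI1 at 154 and 26.6, with 20 and 4 reads. The negative side of mackerel thus held 7 reads or fewer for each of these genes, which reached the mean of 10 through the positive side. Since that threshold keeps such genes, the 4 calls do not stand for the list of 19. C14orf1, known as a membrane anchor of the sterol enzymes in yeast, was also positive in both, at least 9.13-fold in sardine and 19 against 2 reads in mackerel. The fatty acid elongase ELOVL1 was positive in both.

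Amino acid breakdown had the most genes positive in both among the functions. Of 14 genes 9 were positive (64.3%) and 1 negative in sardine and 7 (50%) and 1 in mackerel, and 5 were positive in both. AGXT, which removes glyoxylate, had levels of 55.2 and 8.95 in sardine and 323 and 60 reads in mackerel. TAT, the first enzyme of tyrosine breakdown, stood at 41.8 and 1.85, with 62 and 15 reads. HPD, the next enzyme of that pathway, stood at 314 and 25.3, with 243 and 102 reads, and HGD, further along, was positive in sardine and not called in mackerel (33 and 28 reads). BHMT, which remethylates homocysteine, had levels of 135 and 16.4 and reads of 827 and 255. SHMT1, of one-carbon metabolism, was the fifth. ALDH7A1, of lysine breakdown, was negative in sardine (9.7 against 27.4) and positive in mackerel (145 against 50 reads). Both members of the nitrogen list, ALLC and DPYS, were positive in both. The mackerel call of DPYS, at a mean of 15.4, does not by itself show a difference beyond counting error.

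Of 19 proteasome and ubiquitin genes 12 were positive in sardine (63.2%, near the 53.8% of all 472) and 6 in mackerel (31.6% against 20.8%), with 0 negative on that list, and PSMB7, PSMC1, PSMC5 and PSMD6 in both. PSMC5, an ATPase of the regulatory particle, had levels of 64.2 and 41.7 and reads of 263 and 117. The mackerel call of PSMD6, at a mean of 27.7, does not by itself show a difference beyond counting error. POMP, an assembly factor of the proteasome outside that list, was negative in mackerel and positive in sardine, at 61.4 and 17 in sardine and 5 and 15 reads in mackerel.

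Secretory pathway and detoxification genes were called positive mainly in sardine. Of 24 genes of folding and transport in the endoplasmic reticulum 20 were positive (83.3%) and 0 negative in sardine, and 3 (12.5%) and 1 in mackerel. XBP1, a transcription factor of the unfolded protein response, was 345 against 59 in sardine and had 348 and 321 reads in mackerel. STT3A, of the oligosaccharyltransferase, was 259 against 73.8, with 176 and 123 reads. Of 8 genes of cytochrome P450 and drug metabolism 7 were positive in sardine and 2 in mackerel, with CYB5A, the electron donor cytochrome b5, in both. CYP3A4 stood at 36 and 9.72 in sardine and 15 and 16 reads in mackerel. Of 7 antioxidant genes 6 were positive in sardine and 0 in mackerel, where MGST3 and PRDX1 were negative. The mackerel call of PRDX1, at a mean of 15.7, does not by itself show a difference beyond counting error. GPX4, which reduces lipid peroxides, had levels of 734 and 21.6 in sardine and 57 and 54 reads in mackerel.

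Of 9 cytoskeletal genes 5 were negative (55.6%, the side of the muscle markers) and 1 positive in sardine, and 1 and 1 in mackerel. ACTG1 was 11.6 against 303 in sardine and called positive in mackerel with 47 against 25 reads. That mackerel call does not by itself show a difference beyond counting error. ARPC1A, of the actin-nucleating Arp2/3 complex, was negative in both, with levels of 42.4 and 64.2 and reads of 30 and 84. COL1A2, a chain of type I collagen, was also negative in both, at 2.77 and 23.2, with 6 and 20 reads. The other 2 matrix genes lay on the opposite sardine side. FN1 was positive in sardine at 27 against 7.05 and negative in mackerel with 333 and 447 reads. MFAP4, a microfibril-associated glycoprotein, was at least 1842-fold higher on the sardine positive side and negative in mackerel, with 1618 against 2356 reads. Of the 3 members that bind or respond to steroids, SHBG and PGRMC1 were sardine-positive with a negative mackerel call. SHBG had 0 reads on the sardine negative side. PGRMC2 was negative in sardine and not called in mackerel. Neither of the 2 shared symbols on the egg envelope and germ cell list reached a mean of 10 in both tables.

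**Figure D4:**
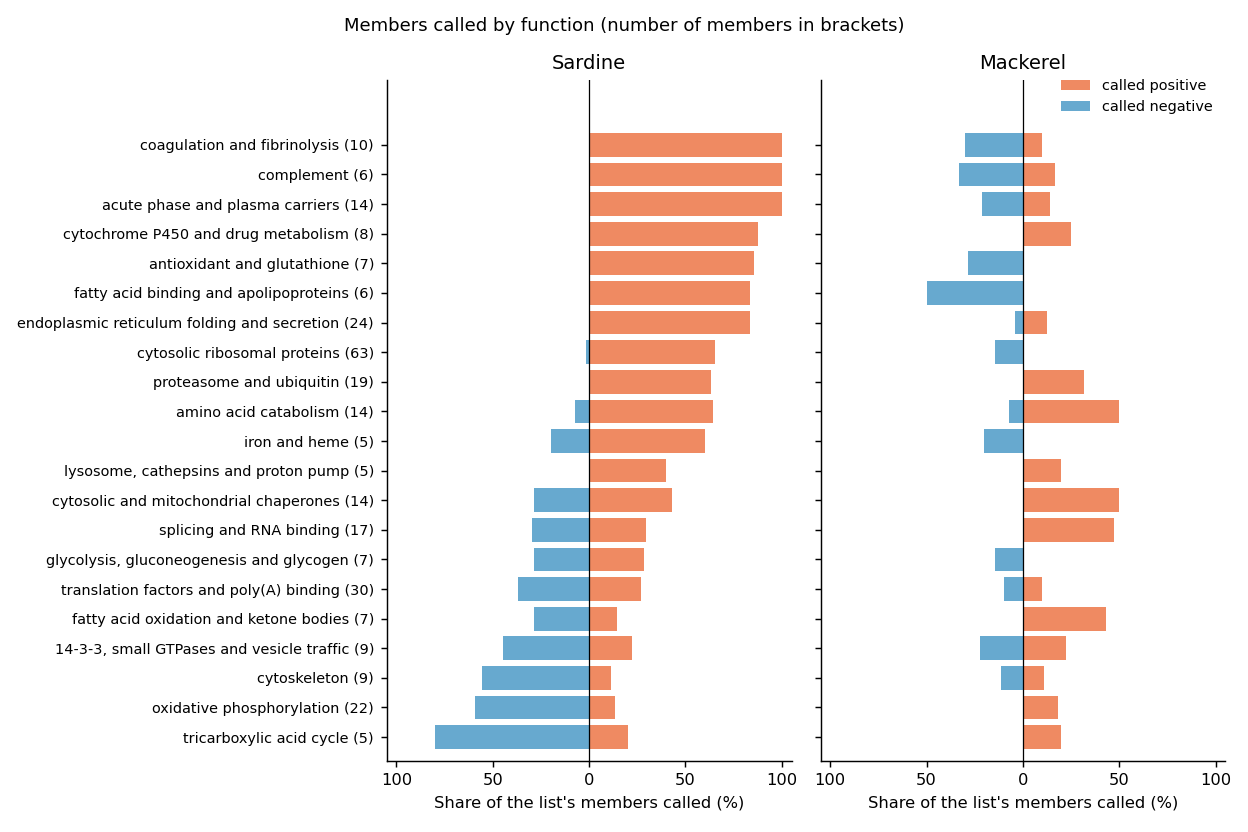
Share of each function's genes called positive (right, orange) and negative (left, blue) in the sardine (left panel) and mackerel (right panel) tables, for the 21 functions with at least 5 members; the number of members is in brackets. The top 3 functions are fully positive in sardine, while in mackerel no function has more than 50% of its genes called on 1 side.

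Among the 146 genes on none of the lists, 79 were positive and 26 negative in sardine, and 36 and 20 in mackerel. Of the 45 called in both species, 24 went the same way and 21 opposite ways. RHOU, a small GTPase, was positive in both with sardine levels of 26.4 and 1.85 and 26 against 4 mackerel reads. PHYH, which starts the oxidation of phytanic acid, was at least 13.5-fold higher on the sardine positive side and had 132 against 30 reads. The taurine transporter SLC6A6 was negative in both, at 23.9 and 107, with 71 and 105 reads.

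The genes negative in both included myoglobin and the keratin KRT19. MB stood at 0.291 and 305 in sardine and had 7 and 24 reads in mackerel, with log2 fold changes of -10.03 ± 1.22 and -1.74 ± 0.24 in the authors' deposited tables. Its sardine positive side amounted to about a single read. KRT19 had levels of 2.2 and 18.5 and reads of 6 and 22. KRT18, the other bile duct marker among the members, was instead positive in both. Its log2 fold changes in the authors' deposited tables were 1.10 ± 0.33 in sardine and 0.78 ± 0.24 in mackerel. The signalling gene GNB1, a beta subunit of G proteins, had levels of 12.2 and 36.4 and reads of 6 and 17. ALAS1, the first enzyme of heme synthesis, had levels of 34.3 and 95.7 and reads of 38 and 54. The histone gene H3F3A, the growth-related TPT1 and the glutamate carrier SLC25A22 completed the 10 genes of largest shared negative change, with COL1A2, RPLP1 and SLC6A6 described above. H3F3A had levels of 7.32 and 40 and only 6 and 11 mackerel reads, and SLC25A22 levels of 5.58 and 22.3 and only 5 and 11 reads. On so few reads a mackerel difference beyond counting error was not shown for either gene. TPT1 had levels of 14.9 and 38 and reads of 24 and 39.

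The strongest opposite calls were in genes of several roles. ABCF2, an ATP-binding cassette protein, had 20 against 165 reads in mackerel, and its log2 fold change of -3.11 ± 0.25 (authors' deposited table, adjusted p 2.64e-31) was the lowest mackerel value of the 472 genes. Its sardine positive side was higher by at least 10.7-fold. ANGPTL2, an angiopoietin-like secreted protein, had levels of 143 and 29.6 and reads of 15 and 50. ITIH3, a hyaluronan-binding plasma protein, had levels of 800.1 and 189 and reads of 171 and 333. The plasma protease inhibitor A2M was at least 133-fold higher on the sardine positive side and had 10 against 29 reads, ALDH1L2 at least 17.9-fold with 50 against 103 reads, and C1QL4 at least 16.1-fold with 125 against 238 reads. In the reverse direction MYEF2 stood at 4.9 and 30.7 in sardine and had 53 against 6 reads. AIFM1, a mitochondrial oxidoreductase, stood at 19.8 and 41.2 with 79 against 27 reads, and the nuclear import receptor IPO7 at 26.2 and 92.1 with 58 against 22 reads.

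**Figure D5:**
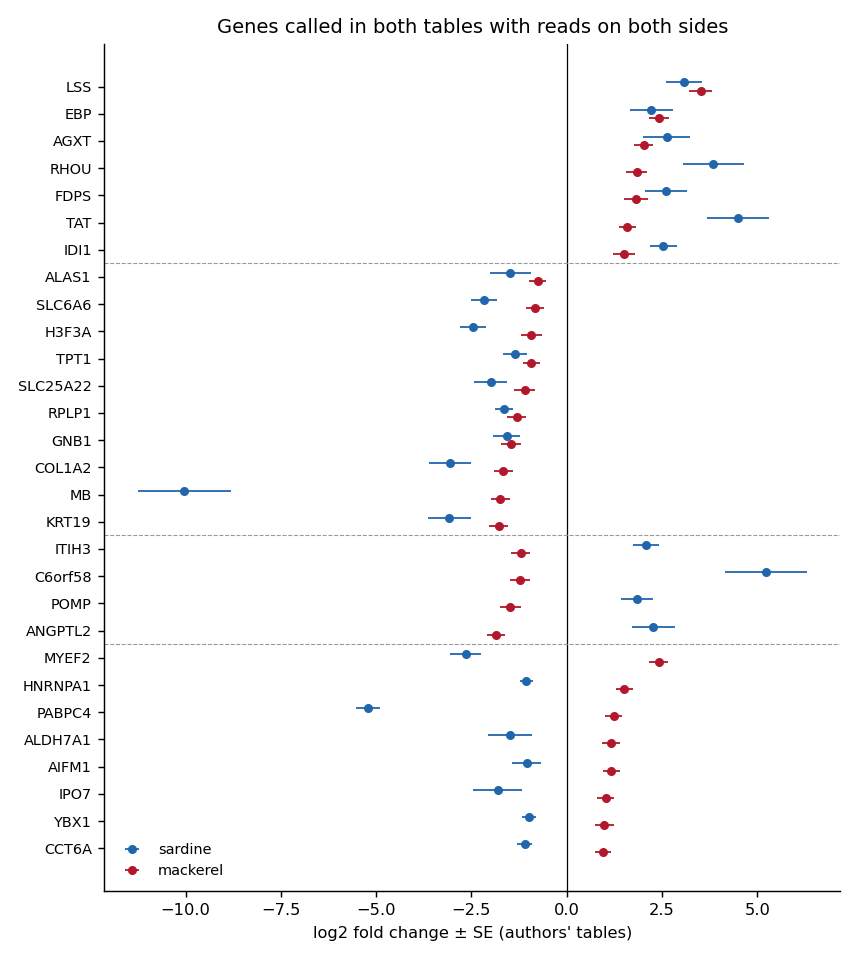
Log2 fold change with its SE (bars) in sardine (blue) and mackerel (red) from the authors' deposited tables, for 29 named genes called in both tables with sardine reads on both sides. From top to bottom the dashed lines separate genes positive in both, negative in both, sardine-positive with mackerel-negative, and the reverse. LSS lies at 3.09 in sardine and 3.52 in mackerel, EBP at 2.22 and 2.42, and AGXT at 2.63 and 2.02, on scales that are not the same. MB and PABPC4 lie farthest to the left in sardine.

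The difference between the 2 fold changes of a gene was tested with a two-sided Wald test from both SEs, adjusted over all 3449 shared symbols by the Benjamini-Hochberg method. It was under 0.05 for 321 of the 472 genes (68.0%), with sardine higher in 221 and lower in 100, against 45.5% of all shared symbols. With the mackerel sign turned, as a reverse order of its groups would do, 301 genes differed, with sardine higher in 231 and lower in 70. Among the 381 genes with sardine reads on both sides it was 230 (60.4%). Of the 47 such genes called in the same direction 17 differed. Genes called in opposite directions differ by their selection, so no count is read from them. For LSS the sardine value minus the mackerel value was -0.43 ± 0.56 (SE; adjusted p 0.497), for EBP -0.20 ± 0.62 (adjusted p 0.789), and for AGXT 0.61 ± 0.66 (adjusted p 0.415), so their size was not shown to differ. The test takes both tables as having the same order of groups and the same scale. The mackerel SE holds no spread between fish and hardly changes with the number of reads. These p-values are therefore secure neither as statements about fish nor as statements about read counts.

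Many members have a second row under the same symbol, which the selection set aside. In sardine 78 members called positive had one, and it was called positive in 61, negative in 7 and not at all in 10. Of 32 members called negative the second row was negative in 11, positive in 12 and not called in 9. In mackerel the second row went the same way for 6 of 32 positive and 11 of 25 negative members, the opposite way for 3 and 2, and was not called for 23 and 12. At the threshold, UGP2, TAF15 and SF3B2 were just inside in sardine with means of 10.1, 10.2 and 10.2, and RUVBL1, NDUFAB1 and SOD2 just outside with 9.97, 9.89 and 9.88. In mackerel YY1, CES2 and GPS1 all had a mean of 10.0, and HIST2H2AB, TUBA1B and ZRANB2 stood just outside at 9.94, 9.94 and 9.81.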

How the data were processed

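Liver RNA of 20 fish was sequenced from TruSeq libraries. Per the labels the submitters' processing notes name DESeq2, CASAVA 1.8 and GRCz10, a zebrafish build. Which aligner, counting tool and filters were used is not given in the sources used here. Each deposited table holds, per the file headers, the mean normalized count (a signal), the log2 fold change and its SE in log2, the test statistic (a score), and each p-value with its adjusted form. Total counts per library are unknown, so precision rests on the recovered reads: the median member had 113.5 mackerel reads over both sides and 24 estimated sardine reads on the negative side.

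Symbols were matched exactly. Mackerel reads were recovered for all 9191 rows (largest residual 4.62e-06), and 4 members fitted more than 1 pair of whole numbers, of which the one nearest the fold change was taken. In sardine the deposited mean weights both sides equally, and the negative side was a single whole number worth 0.443 normalized counts a read; over 112 rows with few reads the estimate lay a median of 0.0521 from a whole number. A gene estimated at under 0.5 reads counts as 0. Floors cover counting error only, since PCR copies cannot be told from separate molecules in these libraries. The read recovery and the Wald test of the difference were tested on simulated data. Python 3.11.15 with scipy 1.17.1 was used.

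The members and the 36 function lists were chosen with earlier results of these data known. The genes named were the 12 with the lowest rank sum, the 8 with the largest rank gap each way, up to 10 per sign called alike and 8 per direction called oppositely by the smaller of their absolute fold changes, up to 4 of lowest rank sum per list of 5 or more members, 3 on each side of the threshold, and the 5 most abundant called in neither. Other genes named within a list were chosen after their calls were seen.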

Additional observations from a re-analysis of the deposited data

Results flagged for a closer look

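The fold change of a gene in sardine was set against its fold change in mackerel by the two-sided Wald test, adjusted over all 3449 shared symbols by the Benjamini-Hochberg method, for the 36 genes named as called in both tables. The 7 of these with 0 reads on the sardine negative side were left out, because their fitted fold change is no size. The values given are sardine minus mackerel on the log2 scale with the SE. Neither table states the order of its groups, the scales are not the same, and the mackerel SE holds no spread between fish. Nor is that SE a counting error. It was 0.277 for IDI1 with 20 and 4 reads and 0.251 for FGG with 14840 and 18547 reads. For genes with few mackerel reads, such as IDI1, RHOU (26 and 4), COL1A2 (6 and 20) and H3F3A (6 and 11), a difference beyond counting error was not shown.

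Among genes positive in both, the sardine value was larger for RHOU (2.00 ± 0.85, adjusted p 0.042), TAT (2.90 ± 0.84, adjusted p 0.00298) and IDI1 (1.03 ± 0.44, adjusted p 0.0455). Among genes negative in both, it was the more negative for MB (-8.29 ± 1.24, adjusted p 1.54e-09), COL1A2 (-1.41 ± 0.60, adjusted p 0.0439), H3F3A (-1.52 ± 0.44, adjusted p 0.00299) and SLC6A6 (-1.35 ± 0.41, adjusted p 0.00482).

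The next 12 genes were selected for their opposite calls, which fixes that they differ, so their values are a description with no test. Among genes positive in sardine and negative in mackerel, the difference was 4.13 ± 0.60 for ANGPTL2, 3.33 ± 0.50 for POMP, 6.46 ± 1.10 for C6orf58 and 3.29 ± 0.41 for ITIH3. In the reverse direction it was -5.06 ± 0.49 for MYEF2, -6.44 ± 0.39 for PABPC4, -2.66 ± 0.62 for ALDH7A1 and -2.57 ± 0.29 for HNRNPA1. For AIFM1 it was -2.22 ± 0.44, for IPO7 -2.83 ± 0.67, for YBX1 -1.97 ± 0.32 and for CCT6A -2.06 ± 0.29. C6orf58, RHOU, TAT and MB each had a sardine side of about 1 or 2 reads.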

How the results depend on the processing

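Of 69 recomputed values, 39 stayed close to the reported one and 30 moved. Only the correlations can change sign, and neither did in the alternatives run. The Spearman correlation of the fold changes was not among the values recomputed with the mackerel sign reversed, which would turn its sign by construction. The Spearman correlations of the abundance ranks (0.612) and of the fold changes stayed within 0.1 of the reported value under every alternative run. Counts positive in both, negative in both, sardine-positive with mackerel-negative, and the reverse, reported as 52, 12, 42 and 21, moved most. With a mean of 5 or more, 789 genes gave 21 negative in both and 504 differing. With 20 or more, 275 genes gave 25 positive in both, 5 negative in both and 190 differing. With 50 or more, 149 genes gave 7, 3, 14 and 4, and 103 differing. Symbols with 1 row in each table, 259 genes, gave 29, 4, 20 and 11, and 173 differing. An adjusted p under 0.01 gave 30 positive in both, 27 and 8 opposite, and 65 positive in mackerel. Requiring an absolute log2 fold change of 1 in both gave 18, 6, 12 and 6. With the mackerel sign reversed, 301 genes differed in place of 321, 21 were negative in both and 12 negative in sardine and positive in mackerel. Genes with reads on each side of both tables gave 23 sardine-positive with mackerel-negative, and 165 positive in sardine overall. A level of 10 or more on all sides, chosen after seeing the data, gave 18, 6 and 14 for the first 3 counts. The share of calls in both tables that had the same sign was 50.4% as reported and ran from 35.7% with a mean of 50 or more to 57.1% with the fold minimum. Only curated sardine records gave a rank correlation of 0.662 over 421 genes. No paired analysis was possible because the tables hold no values per fish, and leaving out single fish was not run for the same reason. Depth limits the low side of 180 sardine members, whose level there is under 10.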
